A study of Homo sapiens with 15 samples.

Results

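Solo CpGs were taken here as the autosomal CpGs whose nearest other CpG lay 36 to 100 bp away, and they were split by the bases just outside the CpG. Of 27852739 autosomal CpGs, 6366463 (22.9%) met this rule. A or T stood on both sides of 1974879 of them (31.0%), on one side of 3089038 (48.5%) and on neither side of 1302546 (20.5%). These groups are called the both, one and neither classes below, and the both class is the context often written WCGW. Another 6 CpGs with an undetermined reference base beside them were left out. Distance and flanking bases came from the hg38 sequence alone, so no methylation value chose a member. Among autosomal CpGs with a neighbour 2 to 35 bp away, 19.5% had A or T on both sides.

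The libraries are whole-genome bisulfite sequencing of HCT116 cells, an established line from a human colorectal carcinoma, in which doxycycline switched on a short hairpin RNA. The hairpin was directed against UHRF1 in 3 clones (Cl.3, Cl.6 and Cl.9) or against DNMT1 in 2 bulk populations (R1 and R2). Each population gave a Baseline library (day 14, no doxycycline), a Knockdown library (day 14, 10 ng/mL doxycycline) and a Recovery library (day 28, after 14 days of doxycycline and 14 days without it), 15 libraries in all. The hairpin, clonal or bulk growth and the deposited count table cannot be told apart, Recovery had no Baseline of its own day, and UHRF1 and DNMT1 levels were not analysed here.

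After replication the new DNA strand carries no methyl group, and each CpG is for a time methylated on the old strand only. UHRF1 binds such hemimethylated CpGs and, as a ubiquitin ligase, helps to recruit DNMT1, the methyltransferase that restores the second mark. Partially methylated domains (PMDs) are long, mostly late-replicating stretches where this copying is incomplete in many cultured and tumour cells, and CpGs without close neighbours and with A or T on both sides are known to lose methylation there over repeated divisions. The remaining highly methylated stretches are called HMDs.

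To show what a solo CpG of each class looks like, 1 CpG per class was chosen in HMDs and 1 in PMDs, by sequencing depth and not by methylation, among intronic CpGs of protein-coding genes that met the further limits given with the methods and lay in that domain at Baseline in all 5 populations. The hg38 plus strand is shown from 5′ to 3′, and capitals mark the CpG with the base on either side of it. Each of the 6 stretches holds a single CpG, whose nearest other CpG was 56, 93, 37, 40, 87 and 55 bp away in the order given.
CR2 intron, both class, HMD, chr1:207487736-207487761: agaagaattgcTCGAacaaggtctgg
SLC39A11 intron, one class, HMD, chr17:72874678-72874703: gagaggaaagaGCGAgccctgaaaaa
FAM117A intron, neither class, HMD, chr17:49776715-49776740: ggaggaggctgGCGCtgccctttcag
KCNJ2 intron, both class, PMD, chr17:70174418-70174443: ccaaaaattttACGAcaaaccttgga
WWOX intron, one class, PMD, chr16:78942492-78942517: aaaattgattcCCGTagctctctggg
CELF2 intron, neither class, PMD, chr10:10872183-10872208: ttaatcagactCCGGctttgttttca

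Methylated reads divided by the reads covering a CpG gave its methylation level (mC), and a CpG was used in a population when all 3 of its libraries had at least 5 reads there. Between 85.9% and 91.0% of the solo CpGs passed in each population. HMDs of the population's own Baseline held 60.8% to 65.1% of these and PMDs 17.1% (Cl.9) to 37.5% (R1), while 17.7% in Cl.9 and at most 5.51% elsewhere lay in neither and were not used. Reads at solo CpGs numbered 80722976 to 150258792 per library, with a median of 13 to 24 reads per CpG. At that depth the 95% interval of a class mean reached at most 0.0460 percentage points on either side, which covers counting error only. The 3 classes differed in mean depth by at most 5.06% within a library and domain.

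In HMDs, every step from A or T on both sides to A or T on neither went with a higher mC at each stage in all 5 populations. In Cl.3 the both class stood at 85.1% at Baseline, 62.7% at Knockdown and 71.3% at Recovery. In Cl.6 these levels were 86.6%, 56.0% and 69.4%, and in Cl.9 they were 82.3%, 35.5% and 51.6%. Cl.9 thus fell to a mean level at which most reads at such CpGs were unmethylated, and the bulk populations reached a similar level. In R1 the both class went from 86.1% to 38.6% and then to 83.9%, and in R2 from 86.0% to 37.6% and then to 83.8%.

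The neither class began higher and fell less. It went from 93.2% at Baseline to 80.9% at Knockdown and 87.6% at Recovery in Cl.3, from 93.9% to 74.2% and 86.4% in Cl.6, and from 91.7% to 58.8% and 75.9% in Cl.9. In the bulk populations it went from 93.3% to 51.5% and 92.1% in R1 and from 93.2% to 50.5% and 92.1% in R2. At Knockdown the neither class of Cl.9 was therefore above every class of the bulk populations, while its both class was below theirs. The one class lay between the others throughout, with Knockdown levels of 75.03%, 68.0%, 49.8%, 46.4% and 45.4% in Cl.3, Cl.6, Cl.9, R1 and R2.

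**Figure D1:**
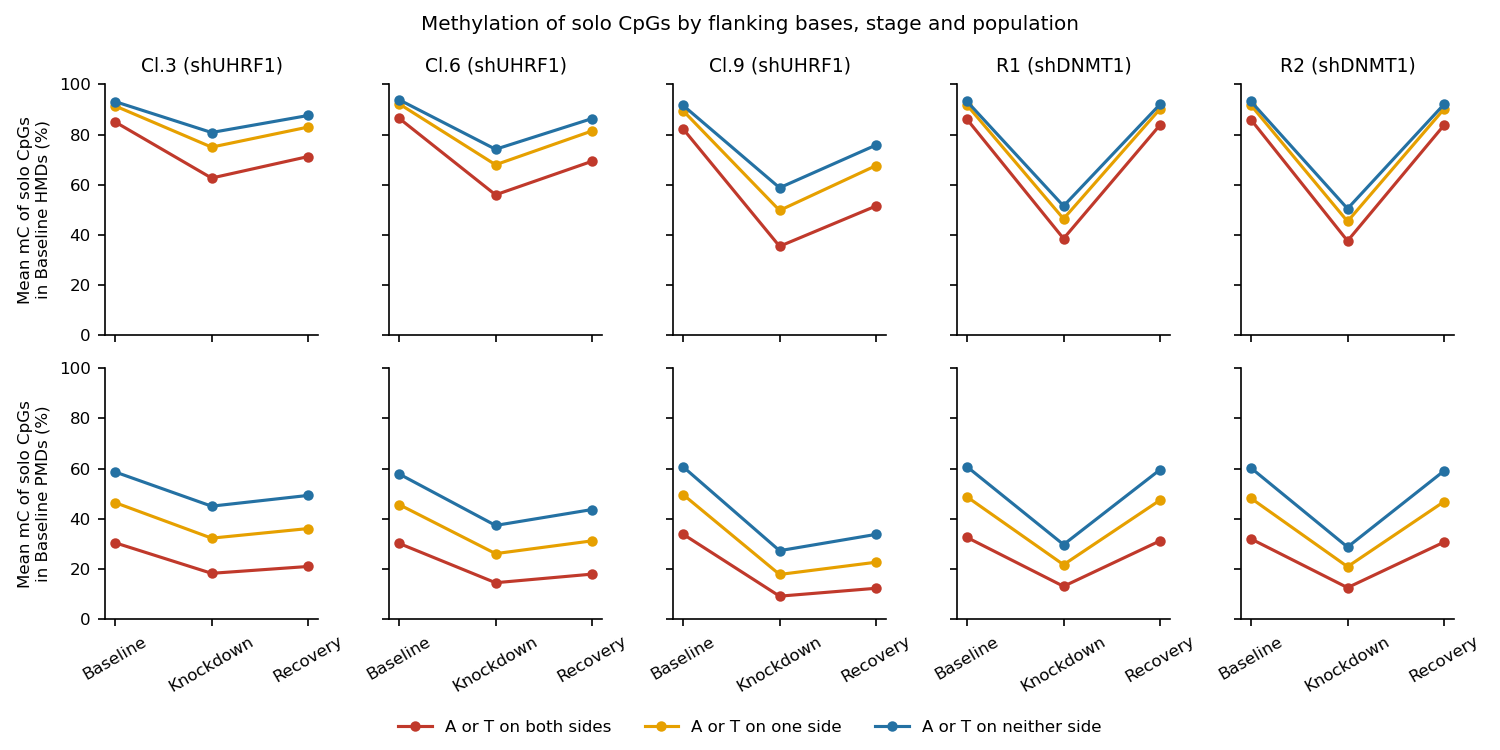
Mean mC in percent (vertical axis) of solo CpGs with A or T on both sides, on one side and on neither, at Baseline, Knockdown and Recovery, in each population and in HMDs and PMDs apart. The class order is the same at all 3 stages in every panel, and only the R1 and R2 lines come back near their Baseline values.

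Loss was the Baseline mean minus the Knockdown mean, in percentage points. In HMDs the both, one and neither classes lost 22.4, 16.4 and 12.3 points in Cl.3, 30.5, 24.3 and 19.8 points in Cl.6, and 46.8, 39.8 and 32.9 points in Cl.9. The bulk populations lost 47.6, 45.3 and 41.7 points in R1 and 48.3, 46.3 and 42.8 points in R2. Loss of the both class exceeded that of the neither class by 11.6 ± 2.08 points over the clones (SD, n = 3; larger in 3 of 3; exact two-sided sign-flip permutation, p = 0.25, adjusted p = 0.339). Over the bulk populations the excess was 5.71 ± 0.188 points (n = 2; larger in 2 of 2; exact sign-flip permutation, p = 0.5, adjusted p = 0.528). For CpGs with a Baseline mC of 0.85 or more it was 9.09 points there. Over all 5 populations it was 9.25 ± 3.55 points (larger in 5 of 5; exact sign-flip permutation, p = 0.063, adjusted p = 0.2375).

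These p-values are the smallest that 3, 2 and 5 populations allow, so none of the 19 main tests could pass 0.05. Adjusted values are Benjamini-Hochberg values over these 19 tests, without those of the alternatives given at the end. The excess was larger in the clones than in the bulk populations by 5.89 points (exact two-sided permutation of the hairpin labels, 3 against 2, p = 0.2, the smallest possible, adjusted p = 0.339), and by 3.43 points for CpGs at 0.85 or more at Baseline in the 4 other populations. As a background, the Baseline library of another population with the same hairpin was put in the place of Knockdown. The excess of the both class then ran from -1.76 to 2.42 points among the clones and from -0.0162 to 0.00312 points in the bulk populations. On the scale of log odds the excess was 0.0466, -0.0656 and 0.0920 in the clones in the order above (their mean was 0.0243) and -0.281 in the bulk populations, with -0.0977 over all 5. The larger loss of the both class in HMDs thus holds in points and as a percent of Baseline, and not in log odds.

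In PMDs the both class started far below the others and lost fewer points. Its mC went from 30.4% at Baseline to 18.3% at Knockdown and 21.0% at Recovery in Cl.3, from 30.2% to 14.5% and 17.9% in Cl.6, and from 33.9% to 9.15% and 12.3% in Cl.9. In R1 it went from 32.6% to 13.1% and 31.2%, and in R2 from 31.98% to 12.6% and 30.7%. The neither class started at 57.9% to 60.8% and stood at 45.03%, 37.4%, 27.3%, 29.7% and 28.7% at Knockdown in Cl.3, Cl.6, Cl.9, R1 and R2. The both class of Cl.9 at Knockdown had the lowest level of any solo class, domain and library.

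Losses in PMDs were 12.2, 14.2 and 13.7 points in Cl.3 for the both, one and neither classes, 15.7, 19.6 and 20.5 points in Cl.6, and 24.7, 31.9 and 33.5 points in Cl.9. They were 19.5, 27.0 and 31.0 points in R1 and 19.4, 27.3 and 31.5 points in R2. The both class thus lost fewer points than the neither class in 5 of 5 populations, with a difference of -5.02 ± 3.64 points in the clones (n = 3; exact sign-flip permutation, p = 0.25, adjusted p = 0.339), -3.15 points without Cl.9. The difference was -11.8 ± 0.383 points in the bulk populations (n = 2; exact sign-flip permutation, p = 0.5, adjusted p = 0.528) and -7.74 ± 4.54 points over all 5 (exact sign-flip permutation, p = 0.063, adjusted p = 0.2375).

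With another Baseline library in the place of Knockdown, the PMD difference ran from -2.30 to 1.198 points among the clones, a range that holds the -1.46 points of Cl.3, and from -0.0110 to 0.0326 points in the bulk populations. With low and unmethylated regions inside PMDs left out, it was 1.60 points in Cl.3, -1.58 in Cl.6 and -5.50 in Cl.9 (mean -1.83) and -8.42 and -9.00 in R1 and R2 (mean over all 5 -4.58), so that Cl.3 turned.

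The direction in PMDs also followed the scale. As a percent of the Baseline level the both class lost more, 40.04% against 23.3% in the neither class of Cl.3, 52.0% against 35.5% in Cl.6, 73.0% against 55.1% in Cl.9, 59.8% against 51.1% in R1 and 60.8% against 52.3% in R2. Restricted to CpGs with a Baseline mC of 0.85 or more, the both class of PMDs also lost more points than the neither class, by 13.0 over the clones and 6.89 over the bulk populations, and by 9.53 and 5.49 where the limit was set in the 4 other populations instead. In log odds, loss of the both minus the neither class of PMDs was 0.123 (Cl.3), 0.101 (Cl.6) and 0.209 (Cl.9) in the clones and -0.132 (R1) and -0.138 (R2) in the bulk populations, so it turned in the clones alone. In HMDs the relative losses were 26.3% against 13.2%, 35.3% against 21.0%, 56.9% against 35.9%, 55.2% against 44.7% and 56.2% against 45.9% in the same order of populations. In points, the excess in HMDs was above that in PMDs by 17.0 ± 4.04 in 5 of 5 populations (exact sign-flip permutation, p = 0.063, adjusted p = 0.2375). This difference shrank to 1.50 points at a Baseline mC of 0.85 or more, where it was -1.42 in Cl.3 and above 0 in the other 4 populations. As a percent of Baseline it was 0.179 percentage points, below 0 in Cl.3 and Cl.6 and above 0 in the other 3. In log odds it was below 0 in 5 of 5 populations, with a mean of -0.130.

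**Figure D2:**
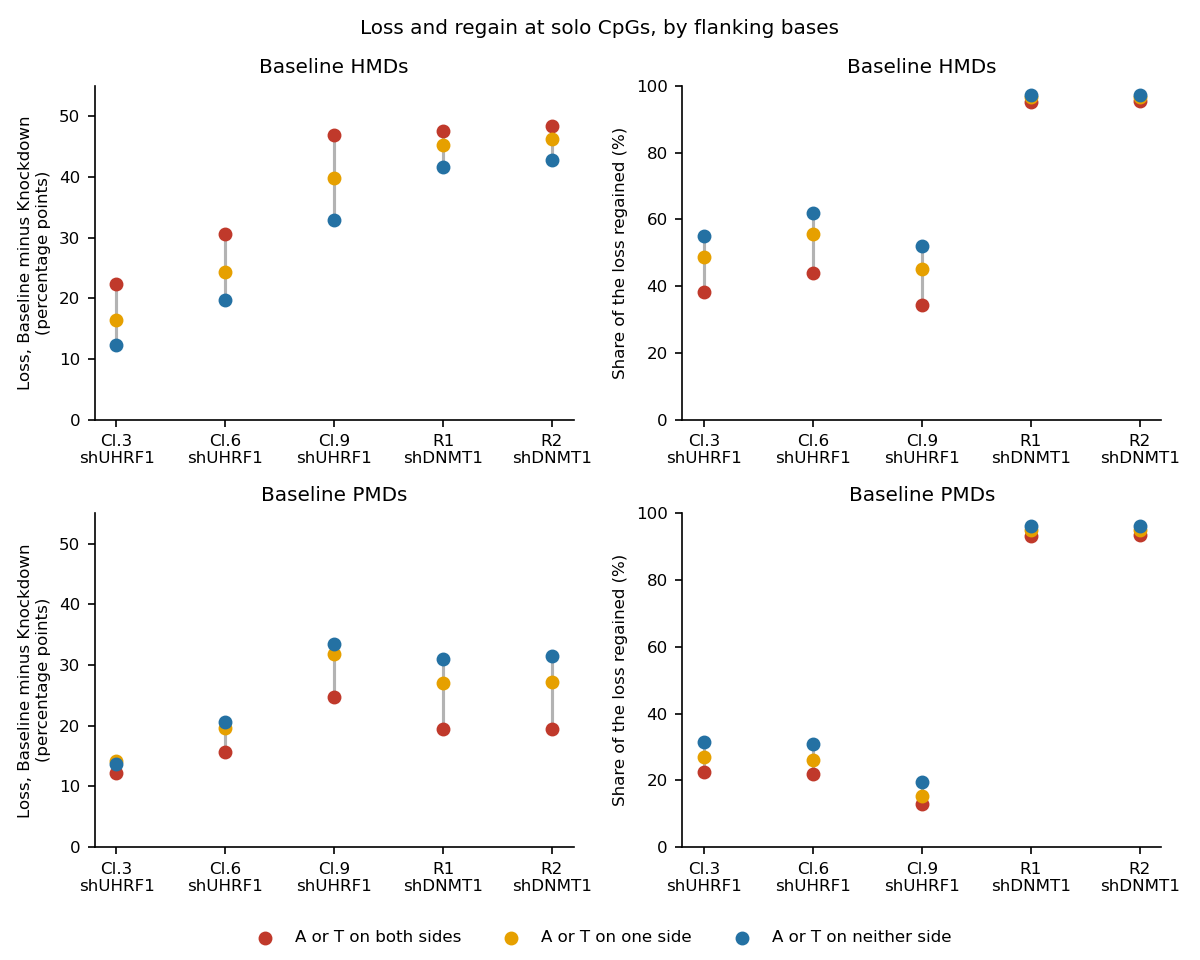
Loss in percentage points and share of the loss regained in percent for the both, one and neither classes, with 1 point per population, in HMDs and PMDs. Loss falls from the both to the neither class in HMDs in every population and is smaller in the both than in the neither class in PMDs, and the share regained rises from the both to the neither class in each.

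The share regained was the rise from Knockdown to Recovery as a percent of the loss. In HMDs of the clones the both class regained less than the others, with 38.3% in Cl.3, 43.8% in Cl.6 and 34.3% in Cl.9. The one class regained 48.7%, 55.5% and 44.98%, and the neither class 55.02%, 62.0% and 51.9%. In R1 the 3 classes regained 95.3%, 96.7% and 97.3%, and in R2 95.5%, 96.8% and 97.4%. The order of the classes was thus the same in both kinds of population, on a scale that nearly closed in the bulk populations.

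The both class regained 17.5 ± 0.698 percentage points less of its loss than the neither class in the clones (n = 3; lower in 3 of 3; exact sign-flip permutation, p = 0.25, adjusted p = 0.339). In the bulk populations it regained 1.92 ± 0.0892 points less (n = 2; lower in 2 of 2; exact sign-flip permutation, p = 0.5, adjusted p = 0.528). With a Baseline mC of 0.85 or more in the 4 other populations the bulk difference was -1.09 points. Over all 5 populations the mean difference was -11.2 ± 8.53 points (exact sign-flip permutation, p = 0.063, adjusted p = 0.2375). The clones differed from the bulk populations by -15.5 points (exact permutation of the hairpin labels, p = 0.2, adjusted p = 0.339). With another Baseline library as the Recovery library, this difference ran from -3.63 to 2.21 points in HMDs of the clones. What was still missing at Recovery was also read in HMDs. There the both and neither classes stood 13.8 and 5.55 points below Baseline in Cl.3, 17.2 and 7.52 points in Cl.6, and 30.8 and 15.8 points in Cl.9. In R1 they stood 2.24 and 1.13 points below it, and in R2 2.16 and 1.12 points.

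In PMDs less was regained in the clones, and the classes kept their order. The both, one and neither classes regained 22.4%, 27.0% and 31.4% in Cl.3, 21.9%, 26.0% and 30.9% in Cl.6, and 12.8%, 15.3% and 19.4% in Cl.9. They regained 93.1%, 95.2% and 96.2% in R1 and 93.4%, 95.2% and 96.4% in R2. What was still missing at Recovery had another order here. The both and neither classes stood 9.46 and 9.36 points below Baseline in Cl.3, 12.3 and 14.2 in Cl.6, and 21.6 and 27.0 in Cl.9. In R1 they stood 1.34 and 1.17 points below it, and in R2 1.28 and 1.14 points. In points the both class was thus less far below Baseline in Cl.6 and Cl.9. The share regained by the both class minus that of the neither class was -8.23 ± 1.34 points over the clones (n = 3; exact sign-flip permutation, p = 0.25, adjusted p = 0.339). Over the bulk populations it was -3.03 ± 0.109 points (n = 2; exact sign-flip permutation, p = 0.5, adjusted p = 0.528), and over all 5 it was -6.15 ± 3.00 points (lower in 5 of 5; exact sign-flip permutation, p = 0.063, adjusted p = 0.2375). In the bulk populations it was -4.67 points for CpGs with a Baseline mC of 0.85 or more and -1.21 points with that limit in the 4 other populations. The clones differed from the bulk populations by -5.20 points (exact permutation of the hairpin labels, p = 0.2, adjusted p = 0.339). In PMDs of the clones, the difference made with another Baseline library ran from -7.73 to 13.9 points, a range that holds the -6.68 points of Cl.9 and reaches close to the mean of -8.23. The difference in HMDs minus that in PMDs was below 0 in 3 populations and above 0 in 2 (mean -5.10 ± 5.77 points; exact sign-flip permutation, p = 0.25, adjusted p = 0.339).

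Single CpGs were then followed from a high start. A CpG with an mC of 0.85 or more at Baseline was counted as hypomethylated when its mC fell by 0.3 or more, and the same count over all autosomal CpGs gave the background. In Cl.3, where 16.1% of all autosomal CpGs fell so far, 33.9% of both-class solo CpGs in HMDs did, against 19.5% of the one class and 11.8% of the neither class. In Cl.6, with 27.6% of all autosomal CpGs, the shares were 51.9%, 34.4% and 23.3%, and in Cl.9, with 53.9% of all, they were 84.4%, 68.1% and 52.5%. In each clone the both class was above the autosomal share. The neither class was below it in Cl.3 and Cl.6 and close to it in Cl.9. In R1, with 77.1% of all, the shares were 92.8%, 86.7% and 78.8%, and in R2, with 78.5% of all, they were 93.5%, 87.9% and 80.5%. In the bulk populations the neither class lay close to the autosomal share and the other classes above it. The autosomal share covers all domains, whereas the class shares are those of HMDs.

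A fall of 0.5 or more separated the classes further in relative terms. It was met by 4.44% of autosomal CpGs in Cl.3, and by 11.5% of both-class and 2.66% of neither-class solo CpGs in its HMDs. In Cl.6, at 8.18% of all autosomal CpGs, the shares were 19.6% and 5.50%, and in Cl.9, at 26.1% of all autosomal CpGs, 54.7% and 21.6%. In R1, at 38.0% of all autosomal CpGs, they were 59.7% and 36.3%, and in R2, at 39.6% of all autosomal CpGs, 61.2% and 38.1%. Under this stricter limit the neither class lay below the autosomal share in all 5 populations. The classes also differed in how many CpGs could enter the count, since 71.5% to 77.4% of the both class and 89.0% to 91.2% of the neither class in HMDs had a Baseline mC of 0.85 or more.

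The CpGs of PMDs that began at 0.85 or more were few in the both class, 9.18% to 12.9% of it against 36.2% to 41.5% of the neither class. A fall of 0.3 or more was met by 53.2% of both-class and 25.3% of neither-class CpGs in Cl.3 (16.1% of all autosomal CpGs) and by 71.6% and 46.8% in Cl.6 (27.6% of all). The shares were 96.2% and 82.3% in Cl.9 (53.9% of all), 95.1% and 86.9% in R1 (77.1% of all), and 95.2% and 88.0% in R2 (78.5% of all). The Baseline library that set the limit was also the one the fall was measured from, so these shares were not compared with those of HMDs. At Recovery 37.2%, 48.7% and 86.8% of such both-class CpGs in PMDs of Cl.3, Cl.6 and Cl.9 were still 0.3 or more below Baseline. In the neither class the shares were 13.8%, 24.8% and 61.7%, so both classes lay above the 7.34%, 10.1% and 27.2% of all autosomal CpGs. In R1 and R2 the both class stood at 4.87% and 3.76% and the neither class at 1.77% and 1.42%, against 0.74% and 0.666% of all autosomal CpGs. The autosomal shares cover all domains, and the limit and the deficit rest on the same Baseline library. The distance of the PMD shares from them is therefore not read as a result.

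The opposite end of the range was the CpG that kept an mC of 0.85 or more at Knockdown. In HMDs this was the case for 30.4%, 46.7% and 59.5% of the both, one and neither classes in Cl.3, where 55.4% of all autosomal CpGs kept it. In Cl.6 the shares were 13.9%, 25.7% and 37.3%, with 37.2% of all, and in Cl.9 they were 1.98%, 6.33% and 13.3%, with 16.7% of all. In R1 they were 0.490%, 1.26% and 2.70%, with 4.04% of all, and in R2 0.452%, 1.14% and 2.35%, with 3.62% of all. The share that kept the level rose from the both to the neither class in each population, and in the neither class it was near or below that of all autosomal CpGs in Cl.6, Cl.9, R1 and R2. Still 0.3 or more below Baseline at Recovery were 16.7% of the both class and 3.87% of the neither class in HMDs of Cl.3 (7.34% of all autosomal CpGs), 21.7% and 5.47% in Cl.6 (10.1% of all), and 51.2% and 19.4% in Cl.9 (27.2% of all). In R1 these shares were 1.00% and 0.297% (0.74% of all), and in R2 0.908% and 0.285% (0.666% of all). These shares in HMDs also rest on the Baseline library that set the limit, and its part in the class order was not tested.

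The whole range of single CpGs was read from those with at least 10 reads in all 3 libraries. Of the both class in HMDs of Cl.9, 75.6% were at 80% mC or more at Baseline, 3.04% at Knockdown and 20.3% at Recovery. CpGs at 20% or less went from 5.47% to 31.1% and back to 18.1%, so more CpGs of this clone stood at low levels. In R1 the same class had 79.2%, 0.752% and 75.7% at 80% or more, and at Knockdown 84.1% lay between the limits and 15.1% at 20% or less. In the neither class the share at 80% or more at Knockdown was 68.8% in Cl.3, 20.4% in Cl.9 and 5.08% in R1. In PMDs of Cl.9, 83.7% of the both class were at 20% or less at Knockdown, from 45.9% at Baseline.

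**Figure D3:**
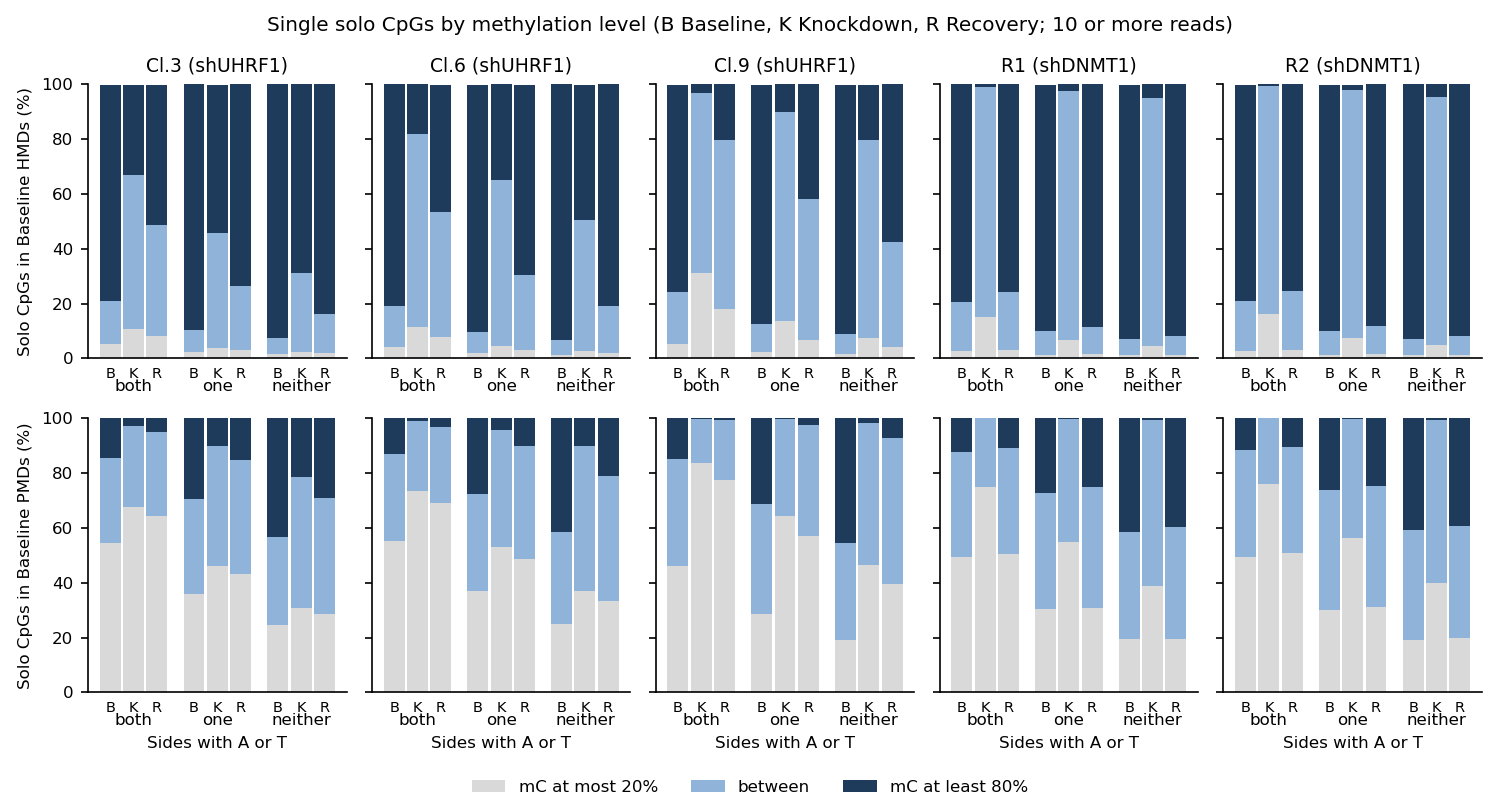
Percent of single solo CpGs (vertical axis) with an mC of at most 20%, between the limits, and of at least 80%, at Baseline (B), Knockdown (K) and Recovery (R), by flanking class, population and domain, for CpGs with 10 or more reads in all 3 libraries. In HMDs the dark band at Knockdown widens from the both to the neither class in every population. It goes from 33.1% to 68.8% in Cl.3, from 3.04% to 20.4% in Cl.9 and from 0.752% to 5.08% in R1. Most CpGs of every class of Cl.9, R1 and R2 stand in the middle band there. So do most of the both and one classes of Cl.6 (70.5% and 60.7%) and of the both class of Cl.3 (56.3%).

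Distance to the nearest CpG was looked at next, because 36 and 100 bp are limits of the rule. In HMDs the both class of Cl.9 lost 28.2, 40.3 and 48.0 points at distances of 5, 20 and 35 bp and 47.9 points at 36 bp, and from there loss changed little, with 47.2 points at 50 bp and 45.7 at 100 bp. In R1 the same class lost 38.5, 45.9, 48.6 and 48.3 points at 5, 20, 35 and 36 bp and 46.4 at 100 bp. The CpGs just inside and just outside 36 bp were thus alike, and the rise with distance lay below that limit. Beyond 100 bp the both class lost 43.9 points in Cl.9 and 45.6 in R1. In PMDs loss of the both class fell with distance instead, from 34.7 to 28.8 and 23.1 points at distances of 10, 36 and 100 bp in Cl.9.

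The excess of the both over the neither class in HMDs did not hang on the distance within the solo range. From 36 to 50, 51 to 75 and 76 to 100 bp it was 10.0, 9.99 and 10.4 points in Cl.3, 14.1, 13.8 and 14.4 points in Cl.9, and 5.89, 5.84 and 6.28 points in R1. CpGs with a neighbour at 2 to 35 bp showed it as well, with losses of 15.4 and 7.50 points in the both and neither classes of Cl.3, 36.9 and 22.3 points in Cl.9 and 43.8 and 35.5 points in R1. The excess at solo CpGs minus that at these denser CpGs was -0.386 ± 2.19 points (above 0 in 2 and below 0 in 3 of 5 populations; exact sign-flip permutation, p = 0.6875, adjusted p = 0.6875). This mean joins unlike values, since the difference was 2.16, 1.53 and -0.607 points in Cl.3, Cl.6 and Cl.9 (mean 1.03 ± 1.45, n = 3) and -2.45 and -2.56 points in R1 and R2 (mean -2.51 ± 0.0741, n = 2). Whether the clones and the bulk populations differ in it was not tested. The direction of the mean followed the setting, being above 0 in 5 of 5 populations as a percent of Baseline (mean 2.39), above 0 in 3 of 5 at a Baseline mC of 0.85 or more (mean 1.79 points) and below 0 in 5 of 5 in log odds (mean -0.158).

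**Figure D4:**
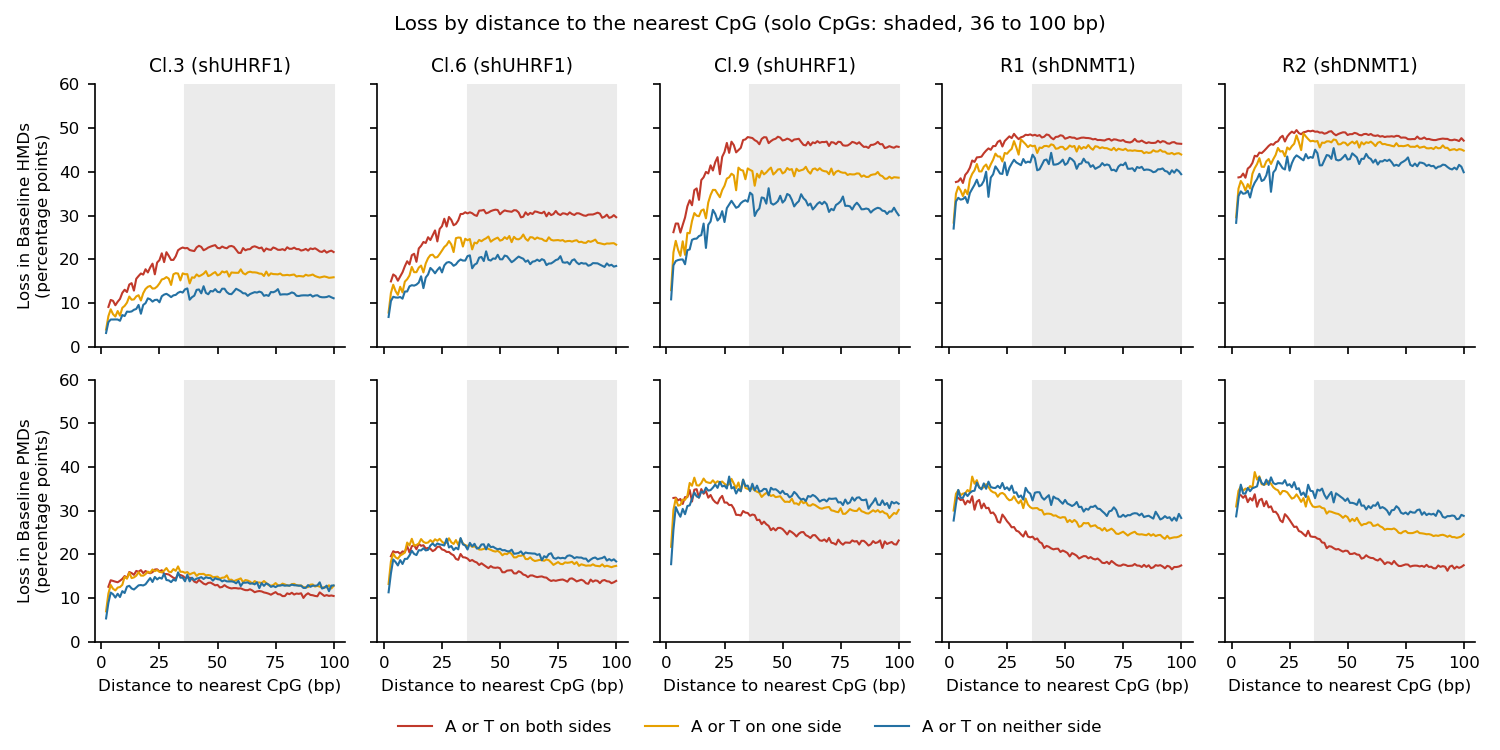
Mean loss in HMDs and PMDs, in percentage points, against the distance in bp to the nearest other CpG, with 1 line per flanking class, 1 column per population and the range of 36 to 100 bp shaded. In HMDs the lines rise up to about 35 bp and then run level, with the both class above the neither class at every distance drawn.

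The classes hide differences between the bases themselves. Read on both strands, the base before and the base after the CpG give 10 contexts, named here by 1 strand, and the loss of a context and of its reverse complement differed by at most 0.229 points. In HMDs the smallest loss was at GCGC in all 5 populations, with 18.5 ± 8.84 points in the clones (n = 3) and 39.3 ± 0.769 points in the bulk populations (n = 2). The largest loss was at ACGT in each clone, 34.6 ± 12.3 points on average, and at ACGA in both bulk populations, 48.3 ± 0.539 points on average. TCGA, the third context of the both class, lost 30.4 ± 12.3 points in the clones and regained least there, 36.1 ± 6.18%. The clones differed in loss at each context, and GCGC and ACGT lost 10.4 and 23.8 points in Cl.3, 17.3 and 32 points in Cl.6, and 28.0 and 47.9 points in Cl.9.

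Within the neither class the contexts were not alike. In HMDs of the clones CCGG lost 24.1 ± 11.8 points, above the 21.2 ± 10.0 points at CCGC and 18.5 at GCGC, and regained 46.6 ± 7.25% against 61.2 ± 4.22% and 63.5 ± 4.00%. Its Baseline level was also the lowest of the class, 90.1 ± 1.48% against 94.1 ± 1.04% at CCGC and 94.8 ± 0.815% at GCGC. The same order held within the one class, where GCGA lost 23.2 ± 10.5 points and regained 56.1 ± 5.10%, and CCGA lost 28.4 ± 12.7 points and regained 43.4 ± 6.42%. In HMDs the mean loss of a context was thus smaller with each strand on which G rather than C stood before the CpG. With G as the next base outward the order turned in all 5 populations. G then G before the CpG lost 18.5, 26.8, 41.3, 46.3 and 47.3 points in Cl.3, Cl.6, Cl.9, R1 and R2. G then C lost 15.3, 23.2, 38.9, 45.5 and 46.5 points. In PMDs the context means did not become smaller with each such strand, since CCGG lost 20.6 points in the clones, CCGC 24.1 and GCGC 21.6. In PMDs the smallest loss was at TCGA in all 5 populations, with 10.5, 13.9, 21.5, 17.7 and 17.6 points in Cl.3, Cl.6, Cl.9, R1 and R2, from a Baseline of 28.5 ± 1.72% in the clones. These comparisons of contexts carry no test.

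Whether the next base outward on each side was A or T also went with the loss in HMDs, clearly in the neither class and little in the both class. Which base it was did go with the loss in the both class. AACGTT and TACGTA lost 31.6 and 13.5 points in HMDs of Cl.3. These bases and the six-base words below were chosen for description after the class values had been seen. In the neither class of HMDs, loss was 17.0, 11.9 and 8.19 points in Cl.3 with A or T at this second position on 0, 1 and 2 sides, 41.4, 32.4 and 24.9 points in Cl.9, and 47.2, 41.5 and 36.3 points in R1. In the both class the same split gave 23.5, 22.01 and 22.1 points in Cl.3, 47.7, 46.4 and 46.8 points in Cl.9, and 48.0, 47.4 and 47.4 points in R1. The excess of the both over the neither class therefore rose from 6.33 to 14.1 and 21.97 points in Cl.9 and from 0.830 to 5.91 and 11.1 points in R1. In HMDs the both class thus lost more than the neither class in each split. A or T 1 base further out went with less loss where C or G adjoined the CpG on both sides. With no A or T at the second position, the one class lost more than the both class in R1 (48.6 against 48.0 points) and R2 (49.7 against 48.8), and less in the clones. In PMDs the populations were not alike in how loss followed the second position. The neither class there lost 14.6, 13.9 and 12.7 points in Cl.3 with A or T at the second position on 0, 1 and 2 sides, 20.6, 20.9 and 20.1 points in Cl.6, 33.2, 34.1 and 32.8 points in Cl.9, 28.9, 31.4 and 32.1 points in R1, and 29.1, 31.9 and 32.8 points in R2. Loss thus fell at each step in Cl.3 and rose at each step in R1 and R2.

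Over the 15 pairs of bases before the C that occur at solo CpGs, T then G had the smallest loss in HMDs of every population, with 9.31, 16.2, 27.3, 38.1 and 39.2 points in Cl.3, Cl.6, Cl.9, R1 and R2. A pair of A had the largest in the clones, with 23.9, 31.8 and 48.5 points, and G then A the largest in R1 and R2, with 48.5 and 49.5 points. A pair of G, which like T then G puts a G beside the CpG, lost 18.5, 26.8, 41.3, 46.3 and 47.3 points in the same order of populations. Pairs that share the base beside the CpG thus differed with the base further out.

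Grouping by all 6 bases (2 on each side of the CpG, both strands joined) gave 120 words, 36 in the both class, 56 in the one class and 28 in the neither class. In HMDs the smallest loss was at TGCGCA in all 5 populations, 4.49 points in Cl.3, 9.91 in Cl.6, 15.4 in Cl.9, 28.4 in R1 and 29.2 in R2. Its Baseline level was 94.7% to 96.2% and it regained 71.6%, 78.05%, 74.2%, 98.2% and 98.7%, over 11734 to 12815 CpGs per population. The largest loss was at AACGTT in Cl.3, with 31.6 points, and at GACGTC in the other 4 populations, with 39.3 points in Cl.6, 57.6 in Cl.9, 52.7 in R1 and 53.8 in R2. At Knockdown Cl.9 thus held 79.3% mC at the first of these words and 28.5% at the last, at CpGs with Baselines of 94.7% and 86.1%.

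AACGTT regained least in HMDs of all 5 populations, 25.8%, 28.1%, 17.9%, 93.5% and 94.1%. It began at 71.1% to 77.3%, the lowest Baseline among the 15 words that read the same on both strands. In Cl.9 it stood at 17.7% at Knockdown. In PMDs the smallest loss was at CTCGAG in every population, with 7.27, 9.73, 14.7, 12.4 and 12.3 points from Baselines of 16.9% to 19.9%. There TGCGCA stood at 78.3% to 79.7% at Baseline, the highest of these 15 words, and at 69.3%, 61.4%, 51.9%, 48.4% and 47.5% at Knockdown.

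A few words went against their class. GGCGCC, a word of the neither class, lost 24.0, 33.2, 51.3, 52.1 and 53.4 points in HMDs of Cl.3, Cl.6, Cl.9, R1 and R2, more than the mean of the both class in each. It began at 92.5% to 94.6% and regained 52.7%, 57.8%, 52.2%, 96.9% and 96.9%, so its regain was like that of its class and its loss was not. TACGTA, a word of the both class, began at 92.6% to 94.6%, lost 13.5, 21.9, 35.8, 40.5 and 41.5 points and regained 62.0%, 69.3%, 64.6%, 98.1% and 97.7%. Among the 20 words with the smallest losses in HMDs, 13 or 14 were of the neither class and at most 1 of the both class in each population. Among the 20 with the largest losses, 11 to 14 were of the both class and 1 was of the neither class.

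**Figure D5:**
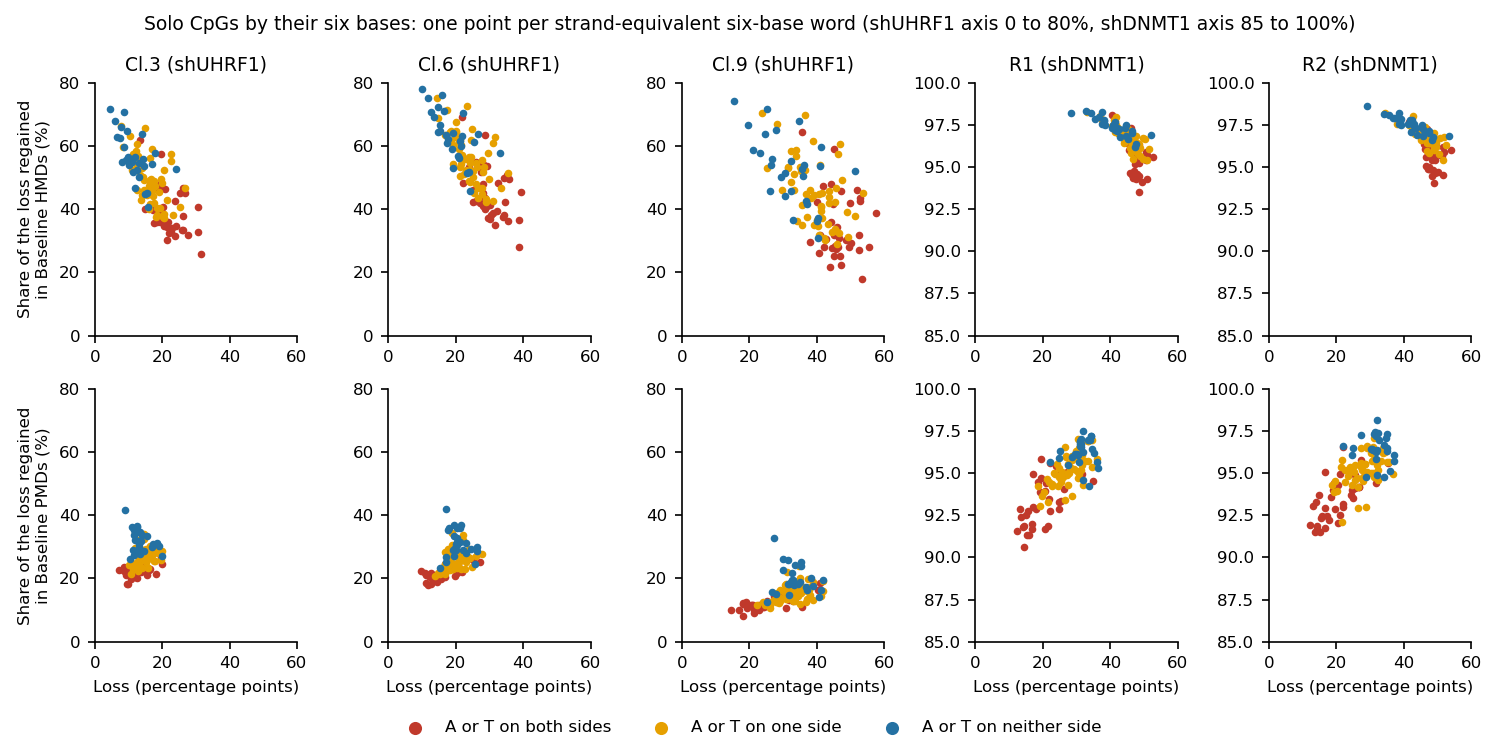
Share of the loss regained in percent (vertical axis, 0 to 80% for the clones and 85 to 100% for the bulk populations) against loss in percentage points (horizontal axis), with 1 point for each of the 120 six-base words, coloured by flanking class, in each population and domain. In HMDs the words of the neither class lie towards small losses and large shares regained and those of the both class at the other end, with overlap between the classes, and in PMDs the both class lies towards small losses.

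Local base composition differed between the classes, so the comparison was repeated in 6 bins of GC content over the 50 bp on each side. In HMDs the both class lost more than the neither class in 18 of 18 bins of the clones, by 9.12 to 20.1 points, and in 12 of 12 bins of the bulk populations, by 2.23 to 10.0 points. The excess was largest in AT-rich surroundings, 20.1 points below 35% GC against 9.42 points at 55% GC or more in Cl.9, and 10.0 against 2.44 points in R1. In Cl.9 the loss of the both class was 47.4 points in the lowest bin and 47.5 in the highest, whereas that of the neither class went from 27.3 to 38.1 points. The both class regained less in every bin of both domains. In PMDs it lost fewer points than the neither class in all 18 bins of the clones (-12.5 to -0.227 points) and all 12 of the bulk populations (-13.3 to -10.2 points).

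The excess in HMDs was also read by chromosome and by place in genes. It was above 0 on 22 of 22 autosomes in each population, from 9.52 to 10.6 points in Cl.3, 11.01 to 15.97 in Cl.9 and 2.92 to 7.58 in R1. In PMDs it was below 0 on 22 of 22 autosomes in 4 populations and on 19 of 22 in Cl.3. By the annotation, 5.84%, 6.35% and 7.19% of the both, one and neither classes lay in exons, 41.2%, 43.1% and 43.5% in introns of protein-coding genes and 38.8%, 37.1% and 36.5% outside genes. The excess in HMDs of the clones was 12.4 ± 2.30 points in exons, 12.3 ± 2.59 in introns and 10.4 ± 1.31 outside genes (n = 3). In the bulk populations it was 6.45 ± 0.176, 6.75 ± 0.131 and 3.97 ± 0.263 points (n = 2). The difference between places was not tested.

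The CpGs shown at the start give the reads behind such means, at 35 to 60 reads each. The CpG in CR2, a complement receptor gene, is of the both class in HMDs. It read 97.3%, 71.4% and 95.2% mC at Baseline, Knockdown and Recovery in Cl.3, 97.7%, 62.2% and 66.0% in Cl.6, 86.1%, 37.5% and 41.5% in Cl.9, 100%, 46.7% and 100% in R1, and 92.7%, 30.6% and 97.7% in R2. It fell in every population, and in Cl.6 and Cl.9 little of the loss had returned. The CpG in SLC39A11, a zinc transporter gene, is of the one class and fell to 79.5%, 91.8%, 61.0%, 59.2% and 63.3% at Knockdown from Baselines of 93.02% to 100%. The CpG in FAM117A, of the neither class, fell to 87.5%, 74.3%, 56.4%, 63.0% and 59.3% from 97.6% or more. At Recovery it read 88.6%, 100%, 79.6%, 100% and 88.7%. In Cl.3 the CpG in CR2 thus came back nearer to its Baseline than that in FAM117A, against the order of the class means.

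In PMDs the CpG in KCNJ2, a potassium channel gene, is of the both class and read 56.1%, 26.3% and 53.3% in Cl.3, 65.9%, 42.1% and 56.4% in Cl.6, 42.6%, 6.82% and 17.3% in Cl.9, 73.2%, 24.5% and 69.8% in R1, and 77.6%, 28.1% and 70.3% in R2. It began above the mean of its class in each. The CpG in CELF2, an RNA-binding protein gene, is of the neither class and was at 0% in Cl.3 at Baseline and at 68.3%, 39.2%, 45% and 41.5% in Cl.6, Cl.9, R1 and R2. Its Knockdown level in Cl.3 was 5.56% and in the others 37.8%, 14.3%, 14.9% and 23.9%, so Cl.3 stood apart from the other populations at this CpG already at Baseline. At Recovery it read 2.86%, 55.3% and 10.0% in Cl.3, Cl.6 and Cl.9, so in Cl.9 it had not risen. The CpG in WWOX, an oxidoreductase gene, is of the one class and was at 27.5%, 2.50%, 2.13%, 13.9% and 18.5% at Baseline in Cl.3, Cl.6, Cl.9, R1 and R2. At Knockdown it read 6.67%, 2.78%, 0%, 13.6% and 7.69%, so it did not fall in Cl.6 and hardly in R1. At Recovery it read 12.2%, 4.26%, 0%, 32.7% and 24.3%, above its Baseline in Cl.6, R1 and R2. Each such value rests on a single CpG, and its Wilson 95% interval was up to 30.1 points wide.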

How the data were processed

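The data are 15 HCT116 libraries of whole-genome bisulfite sequencing, in which unmethylated cytosine is read as T. The authors aligned reads to hg38 with the Meth10X pipeline, as the study's methods say, and they deposited raw counts per CpG and library, the methylated reads and all reads, in 3 tables with 30 count columns. How duplicate reads and sequence variants were treated is not given in the sources used here. All autosomal positions in the tables were checked to be hg38 CpGs and to include every autosomal CpG of that build. Nothing was normalized. The depth of a library sets the error of its values, and also which CpGs have 5 reads and which cross a limit on mC.

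For each library the authors deposited a list of domains as well. PMDs and low and unmethylated regions came from MethylSeekR, and HMDs were the remaining regions (bedtools 2.25.0) with a mean mC of at least 0.8. The Baseline list of each population was used, with start positions read as counted from 0.

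Groups came from the sample titles. Distance, flanking bases and GC content were read from hg38, and genes from GENCODE release 44. Class levels are means over CpGs of mC. CpGs are not replicates, so each gap between classes was computed within a population and tested over populations by exact two-sided permutation, with Benjamini-Hochberg adjustment over 19 tests. A population's libraries are paired by its name in the labels. Per the study's methods, Baseline and Knockdown plates of a population were grown side by side and Recovery came from the same plating. The sources used here do not say how R1 and R2 were derived, so p-values concern these populations only. Where all populations of a sign-flip test go one way, its p-value depends on their number alone and not on their spread. Statistics were tested on simulated data. Python 3.11.15, numpy 2.4.6, scipy 1.17.1 and pandas 2.3.3 were used. The 6 single CpGs named were, per class and domain, those with the highest minimum coverage over the 15 libraries among intronic CpGs with 15 to 60 reads in each, outside chromosome 8, for which no sequence is shown here. The rule also asked for sequence outside repeats, which could not be applied because the reference copy marks none.

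The solo CpGs and their classes were chosen with earlier results of these data known. Alternatives changed the coverage minimum, an upper coverage limit, CpG sets, pooling of reads, domains, Baseline level, GC standardisation, distance, scale, pairing and the populations used. The log odds scale and the Baseline limit taken from other populations were added after seeing the data.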

Additional observations from a re-analysis of the deposited data

How the results depend on the processing

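Of 325 values recomputed under alternatives, 20 reversed their direction. The side of the 0.05 threshold tells little, since no paired test here is able to pass it. The excess of the both class in HMDs and its smaller regain in both domains kept the direction of their means under each alternative run, except on the log odds scale, where the loss difference in HMDs became 0.0243 in the clones, -0.281 in the bulk populations and -0.0977 over all 5. Sizes moved by over 1.5 times in places. For CpGs at 0.85 or more at Baseline in the 4 other populations, the difference in share regained in the bulk populations was -1.09 in HMDs (main value -1.92) and -1.21 in PMDs (main value -3.03), and at 0.85 or more in their own Baseline it was -4.67 in PMDs. The HMD loss difference of the bulk populations was 9.09 points at a Baseline of 0.85 or more and 10.4% as a percent of Baseline, against 5.71 points. With low and unmethylated regions left out, the PMD loss difference was -1.83 points in the clones and -4.58 over all 5. The loss difference in PMDs turned from below to above 0, in the order clones, bulk and all 5 populations, to 13.0, 6.89 and 10.6 points for CpGs with a Baseline mC of 0.85 or more, to 17.1%, 8.59% and 13.7% as a percent of Baseline, and to 9.53, 5.49 and 7.91 points for CpGs at 0.85 or more at Baseline in the 4 other populations. On log odds it turned in the clones (0.144) and over all 5 (0.0325) but not in R1 and R2 (-0.132 and -0.138), and the HMD minus PMD difference became -0.130, below 0 in 5 of 5 populations. That difference was 1.50 points at a Baseline of 0.85 or more, 2.60 points with that limit in the 4 other populations and 0.179% as a percent of Baseline, against 17.0 points. The solo minus dense difference in HMDs, -0.386 points, turned to 1.79 points at a Baseline of 0.85 or more, 1.27 points with that limit in the 4 other populations, 0.115 points standardised for GC content and 2.39% as a percent of Baseline, and ranged from -1.02 to 0.157 points when 1 population was left out (0.131 without R1 and 0.157 without R2). The cause of these changes was not tested, beyond the scale or CpG set that each alternative itself changes.

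Main values compared libraries paired within a population. With no replicate block, the all-population differences were 9.20 points in HMDs and -7.73 points in PMDs, both with an exact permutation p of 0.00794 over unpaired libraries (n = 5), against 0.063 when paired. It also moved the all-population difference in share regained in PMDs from -6.15 to -9.56 and changed no other call. With a fall of 0.5 in place of 0.3, the both minus neither difference in the share of CpGs that fell was 18.7 in place of 27.5 percentage points in HMDs of the clones, 23.2 in place of 13.5 in HMDs of the bulk populations and 18.8 in place of 7.68 in PMDs of the bulk populations. Leaving out each population in turn gave 10.4 to 12.4 points for the HMD loss difference in the clones and -6.80 to -3.15 points for that in PMDs, the latter lowest in size without Cl.9. The alternative without repeats was not run, because the reference copy does not mark them.

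With 5 populations no exact paired test is able to pass 0.05, and the hairpin, the kind of population and the count table cannot be told apart. Depth does not limit the class means, but it limits single CpGs. Of the solo CpGs in PMDs 71.8% to 82.5% had enough reads, against 90.2% to 96.2% in HMDs. The lowest shares in PMDs were those of Cl.9, the population with the most reads per CpG, and the reason was not tested.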
